A study of Mus musculus with 13 samples.

Results

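R-loops that were called in control cells and in neither depletion, or in both depletions and not in control cells, were collected from DRIP-seq peak lists of 9 libraries of N2a cells, a mouse neuroblastoma line. The 3 libraries titled siScramble came from cells transfected with a scramble control siRNA, the 3 titled siDDX1 from cells transfected with siRNA against DDX1, and the 3 titled siEXOSC3 from cells transfected with siRNA against EXOSC3. None of these 9 DNA samples was digested with RNase H before the pulldown, and 1 digested library of each group served as a reference. Peaks of the 9 lists were joined into 69497 regions, and a region counted as called in a library when a peak there covered at least 1 base of it. In all, 1349 of 69497 regions (1.94%) were called in at least 2 siScramble libraries and in 0 of 6 depletion libraries, and are named siScramble-only regions below. Another 309 regions (0.445%) were called in 0 siScramble libraries and in at least 2 libraries of each depletion, and are named both-depletions-only regions. The calls chose these regions, so their presence or absence in a library is a description and carries no test.

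The direction of every difference below depends on the sample titles. For 12 of 12 lists the file name and the peak names carried another treatment than the title. Libraries titled siScramble carry siDDX1 in their file names, those titled siDDX1 carry siEXOSC3, and those titled siEXOSC3 carry siScramble. Read by file name, the 1349 regions were called in siDDX1 libraries and in neither siScramble nor siEXOSC3 libraries, and the 309 regions were called in siScramble and siEXOSC3 libraries and in no siDDX1 library. The peak lists alone do not settle which reading is right. The group names below are those of the titles.

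An R-loop forms when a transcript anneals to its DNA template and displaces the partner strand as single-stranded DNA, often behind RNA polymerase near the starts and ends of transcribed genes and over stretches rich in G and C. DDX1 is a putative RNA helicase of the DEAD-box family, and EXOSC3 is a cap subunit of the RNA exosome, the ribonuclease complex that trims and degrades many nuclear RNAs. DRIP-seq pulls down restriction fragments that carry RNA/DNA hybrids with the S9.6 antibody, so a peak reports a fragment that holds a hybrid, and RNase H, which digests the RNA of a hybrid, serves as the negative control. A peak list does not show how well either protein was depleted.

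Sequences around the summits of 5 of the regions named below, all called in every library of their side, show what kind of DNA was involved. Each line gives 240 bases around the highest summit of 1 region on the plus strand of mm9 (NCBIM37), with runs of at least 3 G or C in capitals, since runs of G in the transcript are known to favor hybrids. The first 3 belong to siScramble-only regions in introns of Eya4, Snd1 and Top2a.
Eya4, chr10:23053807-23054046: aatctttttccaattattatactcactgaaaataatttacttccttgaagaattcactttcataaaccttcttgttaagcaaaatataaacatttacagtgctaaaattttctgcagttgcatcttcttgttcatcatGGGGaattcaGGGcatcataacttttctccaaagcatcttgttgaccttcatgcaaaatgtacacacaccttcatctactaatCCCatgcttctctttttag
Snd1, chr6:28676303-28676542: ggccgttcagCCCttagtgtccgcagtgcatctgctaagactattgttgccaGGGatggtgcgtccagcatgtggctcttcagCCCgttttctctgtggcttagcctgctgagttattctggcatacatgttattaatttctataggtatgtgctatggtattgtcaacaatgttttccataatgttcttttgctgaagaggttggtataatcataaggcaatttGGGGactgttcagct
Top2a, chr11:98863437-98863676: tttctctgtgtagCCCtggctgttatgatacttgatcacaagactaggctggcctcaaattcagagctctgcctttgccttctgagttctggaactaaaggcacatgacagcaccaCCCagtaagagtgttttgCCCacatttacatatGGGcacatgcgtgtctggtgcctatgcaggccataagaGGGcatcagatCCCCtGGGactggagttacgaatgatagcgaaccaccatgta
The other two belong to both-depletions-only regions, in an intron of Phf20 and upstream of the annotated start of Rnf216.
Phf20, chr2:156024422-156024661: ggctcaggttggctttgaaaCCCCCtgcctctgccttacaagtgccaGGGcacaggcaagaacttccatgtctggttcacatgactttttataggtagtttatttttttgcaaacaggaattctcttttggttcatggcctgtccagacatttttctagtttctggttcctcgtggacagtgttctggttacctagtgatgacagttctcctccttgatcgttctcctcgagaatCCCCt
Rnf216, chr5:143874956-143875195: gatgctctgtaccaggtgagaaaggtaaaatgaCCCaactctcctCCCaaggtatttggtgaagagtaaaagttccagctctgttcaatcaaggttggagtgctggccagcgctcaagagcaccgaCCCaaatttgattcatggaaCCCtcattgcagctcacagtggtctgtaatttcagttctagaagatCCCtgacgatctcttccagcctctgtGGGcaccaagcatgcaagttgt
The Eya4 window had 32.5% GC and 3 runs, the Snd1 window 44.6% and 4, and the Top2a window 49.2% and 7. The Phf20 window had 46.3% GC and 3 runs, and the Rnf216 window 48.3% and 6. The Phf20 and Rnf216 windows run past the ends of their regions, at chr2:156024543 and chr5:143875142. Part of their sequence thus lies outside the region. These 5 windows thus overlapped in composition, and the difference between the classes described below lay in their medians.

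The libraries themselves differed in depth and in the number of peaks. Peak number was 34521 ± 9504 in siScramble (SD, n = 3) and 32514 ± 7267 in the depletions (SD, n = 6), a log2 difference of −0.07 that did not exceed the replicate spread (two-sided exact permutation test, p = 0.810, 4 tests in this family, adjusted p = 0.952). Covered length was 35.5 ± 10.9 Mb and 32.3 ± 8.57 Mb (exact permutation p = 0.667, adjusted p = 0.952), peaks within 1 kb of a transcription start made up 22.9% ± 2.37 and 24.6% ± 2.18 (exact permutation p = 0.286, adjusted p = 0.952), and intergenic peaks made up 12.5% ± 0.134 and 12.5% ± 0.932 (exact permutation p = 0.952, adjusted p = 0.952). The expected pileup at background, recovered from the fold enrichment and p-value of each peak, was 1.29 fragments in siDDX1 1 and lay between 0.544 and 0.706 in the other 8 libraries. Each library had a peak over 11 to 14 of 20 neuroblastoma identity genes. Hand1 and the catecholamine synthesis genes Th, Dbh and Ddc were among those with no region in any library. Peaks lay over 1 of 9 liver and gut markers, 0 to 2 of 9 blood markers and 2 of 10 muscle markers.

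Most siScramble-only regions came from a single pair of libraries. siScramble 2 and 3 without siScramble 1 called 956 of the 1349 regions (70.9%), siScramble 1 and 3 called 200, siScramble 1 and 2 called 117, and 76 were called in 3 of 3. By library, siScramble 1, 2 and 3 called 393, 1149 and 1232 of them. siScramble 1 had the shortest list of the 9, with 23882 peaks against 37512 and 42170 in the other siScramble libraries, and a peak at background needed 6 fragments there against 5. The both-depletions-only regions were spread more evenly, with 290, 137 and 233 calls in siDDX1 1, 2 and 3 and 204, 223 and 281 in siEXOSC3 1, 2 and 3. siDDX1 1 and siEXOSC3 3, which called the most of them, also had the longest peak lists of their groups, with 40136 and 42571 peaks. Calls in siDDX1 1 and 3 with siEXOSC3 2 and 3 made the commonest pattern, with 62 regions, and 13 were called in 6 of 6.

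**Figure D1:**
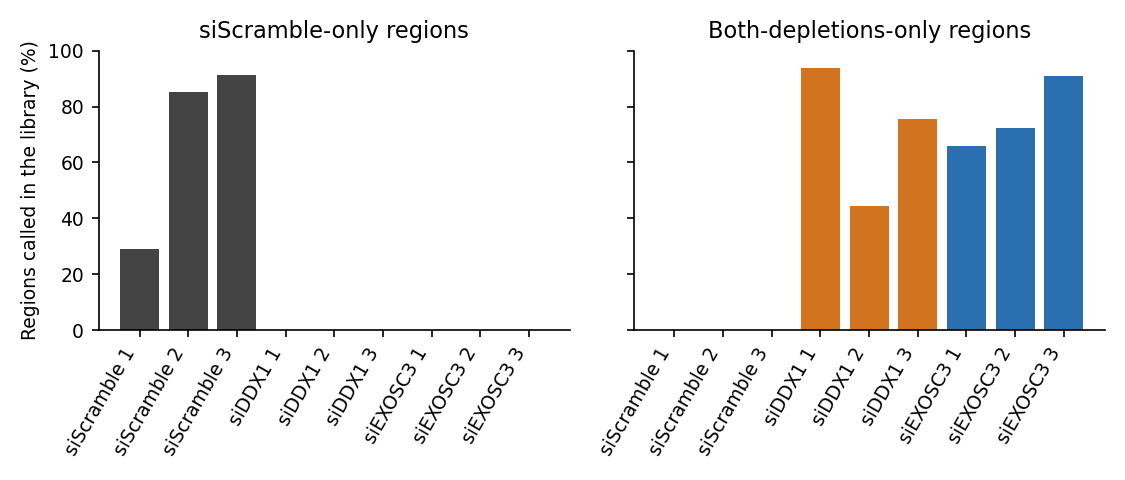
The share of siScramble-only regions (left, of 1349) and both-depletions-only regions (right, of 309) called in each of the 9 libraries, in percent. siScramble 1 called 29.1% of the siScramble-only regions, against 85.2% and 91.3% in siScramble 2 and 3, and the bars at 0 follow from how the regions were chosen.

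The number of regions in each class moved with single libraries. Without siScramble 2 or 3, and with calls then required in both remaining siScramble libraries, 276 and 193 siScramble-only regions were left, against 1032 without siScramble 1. Without siDDX1 1 there were 2034. The both-depletions-only count was 595 without siScramble 2 and 769 without siScramble 3. It was 61, 214 and 118 without siDDX1 1, 2 and 3, and 195, 176 and 118 without siEXOSC3 1, 2 and 3. For these counts, calls were required in both remaining libraries of the depletion that lost 1. The 1349 regions were 6.36% of the 21205 regions called in at least 2 siScramble libraries. The same rule with another group as the only one that calls gave 740 regions for siDDX1 (4.03% of 18365) and 1155 for siEXOSC3 (5.96% of 19376). The 309 regions were 2.27% of the 13586 regions called in at least 2 libraries of each depletion. The rules of the 2 classes ask for different numbers of libraries, so 1349 and 309 are not a ratio of losses to gains.

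Regions of both classes were weak. Their summits held a median of 8 fragments in the libraries that called them, against 10 over all regions and 15 in the 7460 regions called in 9 of 9 libraries. Median fold enrichment over the local background was 4.82 in siScramble-only and 5.18 in both-depletions-only regions, against 5.79 over all regions and 8.96 in the regions called in 9 of 9. Their median widths were 576 and 936 bases, wider than the 517 bases over all regions. Both were narrow only against the 3602.5 bases of regions called in 9 of 9. A library needed 5 fragments to call a peak at background, 6 in siScramble 1 and 7 in siDDX1 1. With each pileup divided by its library's background, the weakest calling library stood at a median of 1.06 times the highest call limit of the libraries without a call in siScramble-only regions, and at 1.00 times in both-depletions-only regions. It stood at 1.5 times that limit or more in 44 siScramble-only and 2 both-depletions-only regions, and at 2 times or more in 4 and 0. For most regions, a library without a call could therefore have held nearly as many fragments as one with a call, and the lists do not show how many it held.

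**Figure D2:**
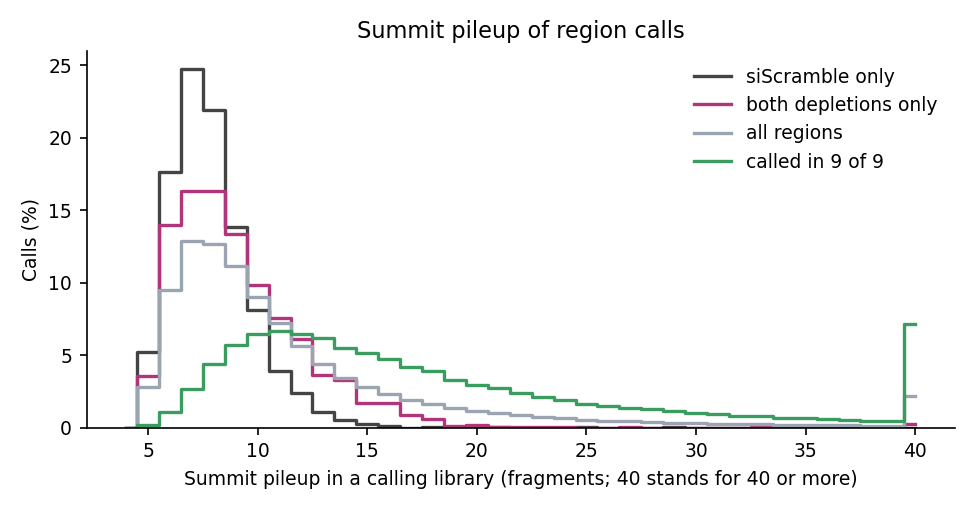
The distribution of the summit pileup, in fragments, over all calls of the regions in each set (percent of calls, with 40 standing for 40 or more). Both classes peak at 7 to 8 fragments, near the 5 to 7 needed for a call, while regions called in 9 of 9 libraries have a median of 15.

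Regions just outside the rules were close to those just inside. The 1786 regions called in at least 2 siScramble libraries and in 1 of 6 depletion libraries had a median pileup of 8 fragments and a median fold enrichment of 4.97. The 11733 regions called in 1 siScramble library only had a median of 7 fragments. On the other side, 828 regions met the depletion rule with 1 siScramble call, with a median of 9 fragments, and 1245 regions with no siScramble call had at least 2 libraries of 1 depletion and 1 of the other, with a median of 8.

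Members lay beside R-loops that the other side did call. The nearest region with a call on the other side was a median of 0.651 kb away from siScramble-only regions, and within 1 kb for 791 of them (58.6%). For both-depletions-only regions the median gap was 0.615 kb and 183 (59.2%) lay within 1 kb. For regions called in 9 of 9, measured to the nearest other region with a depletion call, the median was 0.667 kb. Such spacing was therefore not particular to the members. Read on restriction fragments, 669 siScramble-only regions (49.6%) overlapped a fragment of the 5 enzymes that carried a peak in a depletion library, and 178 both-depletions-only regions (57.6%) overlapped one with a peak in an siScramble library. The fragment shares were not computed for other regions, so they have no background to be read against. Few members overlapped a peak that remained after RNase H, with 22 siScramble-only (1.63%) and 14 both-depletions-only regions (4.53%), against 3.16% of all regions.

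The classes differed in where they lay. By midpoint, 62.7% of siScramble-only regions were in introns and 12.9% within 1 kb of a transcription start, against 57.9% and 18.3% of all regions. Of both-depletions-only regions, 47.6% were in introns and 25.2% near a start. Exons held 8.6% and 12.9%, and intergenic sequence 15.8% and 14.2%, against 10.4% and 13.3% of all regions. Median distance to the nearest start was 8.12 kb for siScramble-only and 3.24 kb for both-depletions-only regions, and 6.09 kb for all regions. Among the regions just outside the rules, the shares near a start were 12.3% and 11.3% on the siScramble side and 26.1% and 23.8% on the depletion side, close to those of the members. Regions called in 9 of 9 had 33.7% near a start and 40.0% in introns.

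Base composition followed the same order. Median GC content was 45.5% in siScramble-only regions and 50.7% in both-depletions-only regions, against 47.6% in all regions, 50.7% in regions called in 9 of 9 and 41.8% in the genome. The order held within introns, at 44.7% and 49.4% against 46.4% for all intronic regions. It was widest near starts, at 46.9% and 55.0% against 52.4%. Observed over expected CpG, a ratio that is high in CpG islands, was 0.239 in siScramble-only and 0.533 in both-depletions-only regions near starts, against 0.386 in all such regions. A motif of 4 runs of GGG or longer, spaced by 1 to 7 bases, was looked for on both strands in 300 bases around each summit and was found in 4.37% of siScramble-only and 7.77% of both-depletions-only windows, against 5.98% of all windows. Among the regions just outside the rules, median GC was 45.7% and 45.6% on the siScramble side and 50.5% and 49.6% on the depletion side. The motif was found in 4.76% and 4.51% of their windows on the siScramble side, and in 8.21% and 7.47% on the depletion side. Such composition was therefore not particular to the members. Whole libraries also differed in composition. The median GC content of all peaks was 49.2%, 48.2% and 48.1% in siScramble 1, 2 and 3, 48.4%, 48.9% and 48.7% in siDDX1, and 50.2%, 49.6% and 49.5% in siEXOSC3. siScramble 2 and 3, which called most siScramble-only regions, had the lowest values and the siEXOSC3 libraries the highest. The part of this library difference in the composition of the classes was not tested.

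**Figure D3:**
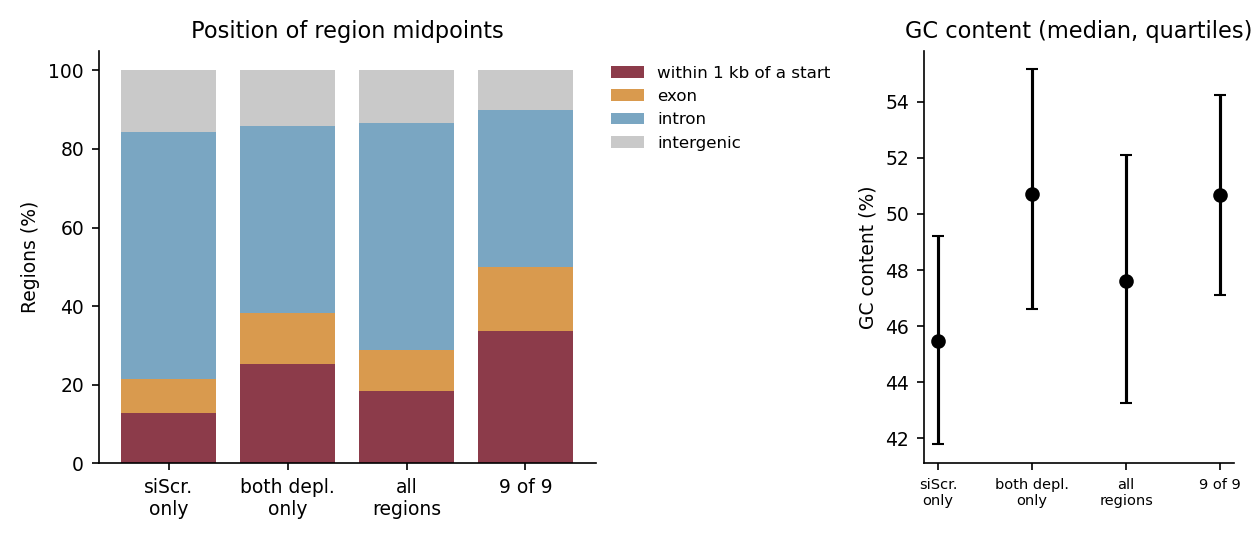
Left, the share of regions (percent) whose midpoint lay within 1 kb of a transcription start, in an exon, in an intron or between genes, for each class, all regions and regions called in 9 of 9 libraries. Right, the median GC content of the same regions with quartiles (percent, axis not from 0). siScramble-only regions hold the fewest starts (12.9%) and the lowest GC (45.5%).

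siScramble-only regions touched 953 protein-coding genes, of which 817 held 1 such region, 102 held 2 and 34 held 3 or more. Both-depletions-only regions touched 260 genes, and 30 genes held both kinds. The genes were long, at a median of 49.4 kb and 40.7 kb against 22.4 kb for the 10805 protein-coding genes with any region. A region called in 9 of 9 libraries lay in 58.0% of the 953 genes and in 48.8% of the 260, against 48.9% of the 10805. A longer gene can hold more regions of any kind, and neither comparison was adjusted for the number of regions in a gene.

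Odz4, which encodes the transmembrane protein teneurin 4 of developing neurons and glia, held the most siScramble-only regions. The gene spans chr7:103319754-104059603, and 18 of its 121 regions were siScramble only, with none of the other class. These 18 were called 7, 14 and 16 times in siScramble 1, 2 and 3. Peaks covered 14.4, 35.6 and 47.7 kb of it in siScramble 1, 2 and 3, 22.0, 11.4 and 16.3 kb in siDDX1 and 8.31, 11.1 and 12.5 kb in siEXOSC3. siScramble 1 lay within the range of the depletions on this scale. Per Mb of each library's own peaks, the values were 0.623, 0.897 and 1.09 kb in siScramble, 0.486, 0.518 and 0.581 kb in siDDX1 and 0.293, 0.365 and 0.314 kb in siEXOSC3. On that scale the 3 siScramble values lay above all 6 others, with siEXOSC3 the lowest. Since the gene was picked by these calls, no test was made.

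Snd1, which encodes a nuclease of the RNA-induced silencing machinery, held 7 siScramble-only regions among 99. Peaks took 0.900, 1.15 and 1.6 kb per Mb of peaks in siScramble, 0.873, 0.607 and 0.791 kb in siDDX1 and 0.256, 0.439 and 0.468 kb in siEXOSC3, again without overlap between siScramble and the 6 others. Snd1 and the genes below were also picked by their member calls. Those calls count in the coverage, so part of any separation is built in. Cit, which encodes the cytokinesis kinase citron, held 6 of 34, none of them called in siScramble 1. Its coverage overlapped between the groups, at 0.335, 0.516 and 0.641 kb per Mb in siScramble and 0.247 to 0.461 kb in the depletions. Agap1, which encodes a GTPase-activating protein of endosomal traffic, held 5 of 156. Its coverage was 2.75, 2.79 and 3.64 kb per Mb in siScramble, 3.08, 2.92 and 2.84 kb in siDDX1, and 0.836, 1.10 and 1.87 kb in siEXOSC3. Agap1 was therefore low in siEXOSC3 libraries, while siDDX1 and siScramble overlapped.

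Adora2a, which encodes an adenosine receptor, held 3 both-depletions-only regions among 8. The pseudogene H2-K2 of the major histocompatibility locus, which the naming rule did not cover and which was picked after its values were seen, also held 3, among 4, and shares sequence with other genes of that locus. In Adora2a, peaks took 0, 0.00991 and 0.0235 kb per Mb in siScramble. They took 0.0743, 0.0555 and 0.0735 kb there in siDDX1 and 0.113, 0.0900 and 0.123 kb in siEXOSC3. Plekhg2, Ppp1r12c and Arhgef40 were among the 13 protein-coding genes with 2, and Plekhg2 had no peak at all in the 3 siScramble libraries. Plekhg2 and Arhgef40 encode guanine nucleotide exchange factors, and Ppp1r12c a regulatory subunit of myosin phosphatase. Gm20388, a gene model of 4435 kb that spans many other genes on chromosome 8, held 8 and 5 of its 680 regions and is named only for completeness.

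**Figure D4:**
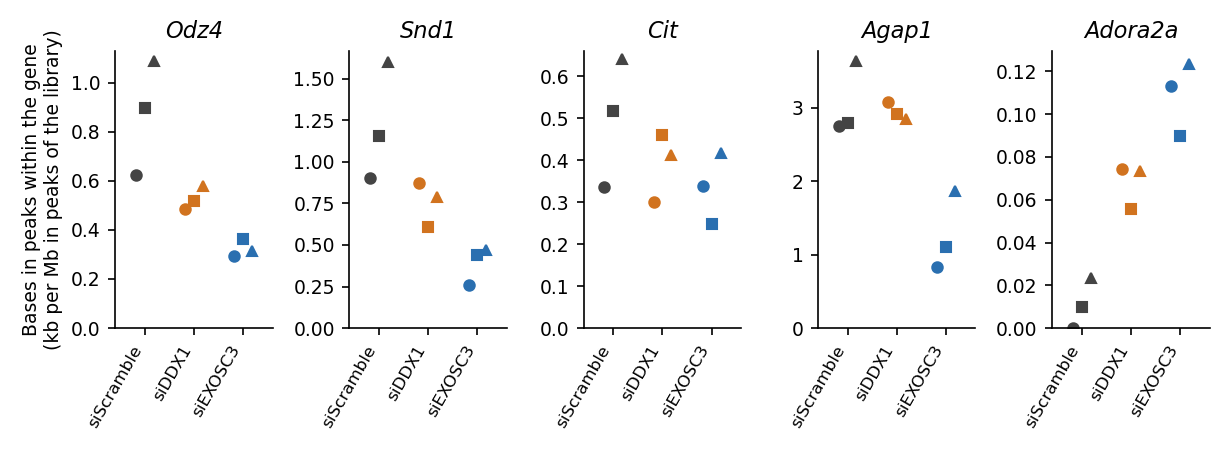
Bases in peaks within 5 genes rich in members, in kb per Mb of peaks of the same library, for each siScramble, siDDX1 and siEXOSC3 library (circle, square and triangle are replicates 1, 2 and 3). In Odz4 and Snd1 the siScramble values lie above all 6 others, and in Adora2a they lie below them. The genes were picked by their members, whose calls count in these values, so part of the separation is built in.

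The siScramble-only regions were ranked by the number of libraries and then by mean fold enrichment, separately within and outside genes. Within genes, first came an intronic region of Eya4 (chr10:23053771-23054071), a transcriptional coactivator with phosphatase activity known from inner ear and heart development. Its summit held 16, 12 and 15 fragments in siScramble 1, 2 and 3 at fold enrichments of 9.47, 7.36 and 9.18, and the weakest of these stood at 2.04 times the call limit of the depletion libraries. Second came an intron of Kif11, the mitotic kinesin Eg5, with 9, 12 and 18 fragments. The third lay in an intron of Snd1 and also in the overlapping gene Lrrc4, an adhesion protein of synapses, with 10, 12 and 10 fragments. All 3 libraries thus held at least 9 fragments at these regions, while the 6 others made no call.

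The next regions by rank had summits of 5 to 14 fragments. They lay in exons of Nudcd3, a dynein cofactor, of Prr11, a cell cycle protein, and of Snx3, a sorting nexin of endosomes. They lay in introns of Scd3, a fatty acid desaturase, Man1c1, a mannosidase of the Golgi, the peroxidase Prdx1, the topoisomerase Top2a and the glucose transporter Slc2a1. The Top2a region (chr11:98862822-98864004) lay 0.248 kb from an annotated start and held 9, 8 and 12 fragments. At Prdx1 siScramble 3 held only 5 fragments, 0.792 times the highest call limit of the depletion libraries. Outside genes, the first 2 regions lay 301 kb from Ptprd (chr4:78159147-78159638), at a mean fold enrichment of 9.02, and 0.672 kb from the histone gene Hist2h4, at 7.15.

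Within genes, the both-depletions-only region ranked first covered the start of Hes7 (chr11:68933543-68938419), a Notch-responsive repressor of the segmentation clock, together with the divergent noncoding gene 9130213A22Rik. It held 15, 7 and 9 fragments in siDDX1 1, 2 and 3 and 13, 14 and 23 in siEXOSC3 1, 2 and 3. Its fold enrichment ran from 4.92 to 15.4, and its weakest library stood at 1.32 times the call limit of the siScramble libraries. It was the only region of Hes7, so no siScramble library had a peak in the gene. Crip1, a small LIM protein that also had this region alone, came second with 12, 7 and 8 fragments in siDDX1 and 10, 11 and 13 in siEXOSC3. The third covered the start of Rnf216, a ubiquitin ligase, with 16, 7 and 6 fragments in siDDX1 and 7, 12 and 16 in siEXOSC3. In each of these regions all 6 depletion libraries made a call at 6 fragments or more.

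The other leading both-depletions-only regions were spread over starts, introns and exons. Csrnp2, a nuclear transcription factor, and Anapc7, a subunit of the anaphase-promoting complex, were covered at a start. Regions lay in introns of Phf20, a reader of the MOF acetyltransferase complex, Dcbld2, a membrane receptor, and Fam129b, a cytoplasmic phosphoprotein. Regions of Adora2a, Paqr7 (a membrane progestin receptor), Scrn2 (secernin 2) and Sipa1l2 (a RapGAP family member) overlapped exons. Sipa1l2 was the region of this group with the widest margin, at 1.74 times the call limit, although 5 of 6 libraries called it. The gene also held 2 siScramble-only regions among 26, and Rnf216 held 1 among 28. At Adora2a, Scrn2, Dcbld2, Paqr7 and Anapc7 the weakest calling library stood below 1 times that limit, down to 0.567. The first 2 regions outside genes lay 0.249 kb from A430105I19Rik and 4.52 kb from Faim2, an inhibitor of Fas signaling in neurons.

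Genes of 8 functional lists and of the neuroblastoma identity list were then counted by region. Several of these themes were named by the study from these samples, so their counts are not independent evidence. Regions in BMP and Notch signaling genes were siScramble only in 7 of 175 cases (4.00%), against 1.94% of all regions. They lay in the receptor genes Acvr1 and Bmpr2, in Smad4, which carries BMP and TGF-β signals to the nucleus, in Smad7 (2 regions), which inhibits them, and in Rbpj and Maml3 of the Notch transcription complex. Hes7 was the only gene of this list with a both-depletions-only region. For neuronal development genes the count was 14 of 467 (3.0%), with 3 regions each in the adhesion gene Ncam1, the splicing regulator gene Rbfox2 and the transcription factor gene Tcf4, and 2 in Celf4. For axon guidance genes it was 11 of 529 (2.08%), with 4 in the guidance ligand gene Slit3 and 2 in Dpysl2, which encodes a cytoskeletal partner of semaphorin signals. Both-depletions-only regions lay in Dpysl5 and Srgap3 of the axon guidance list and in Elavl3 and Rbfox2 of the neuronal list, which is 0.378% and 0.428% of their regions against 0.445% of all.

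Genes of RNA metabolism held siScramble-only regions near the background share. They had no both-depletions-only region among 149, 182 and 262 regions of the lists below, against a background of 0.445%, at which few would fall in lists of this size. The list of the RNA exosome and its nuclear cofactors had 4 of 149 (2.68%), with 2 in Skiv2l2, which encodes the exosome helicase MTR4, and 1 each in Zfc3h1 of the polyA tail exosome targeting connection and in C1d, a partner of the nuclear exosome. The list of R-loop resolution genes had 4 of 182 (2.2%), in Xrn2, a 5′ to 3′ exonuclease of termination, Rtel1, a helicase, Ints3 and Smarca4. Of the regions in RNA processing and splicing genes, 5 of 262 (1.91%) were siScramble only, in Pabpc1, Tra2a, Srsf4, Hnrnpr and Nop58. In protein folding and stress response genes it was 5 of 278 (1.80%), with both-depletions-only regions in the cochaperone gene Bag3 and in Hspa4 (0.719%). In histone modification genes it was 7 of 473 (1.48%), with 2 in the deacetylase gene Hdac4, and both-depletions-only regions lay in Kdm4a and Hdac5 (0.423%). In the neuroblastoma identity list, 5 of 135 regions (3.70%) were siScramble only, and all 5 were intronic regions of Alk, a receptor kinase gene that is often activated in neuroblastoma. The liver, blood and muscle markers had 5, 4 and 14 regions, too few for these shares to be read, and none was a member.

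Of the genes that the study followed individually, Celf4 alone held members. The gene encodes a neuronal RNA-binding protein and had 2 siScramble-only regions among 54, both intronic, against 1.94% of all regions. Ints6, an Integrator subunit gene, and Bambi, which encodes a decoy receptor of BMP signaling, had none among 3 regions each. One Bambi region was called in 3 of 3 siEXOSC3 libraries and in no other library. Ddx1 and Exosc3 themselves had none among 5 and 1 regions, and 1 of the Ddx1 regions was called in 9 of 9 libraries.

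Regions called in 9 of 9 libraries carry a value in each, and were not chosen by a difference, so enrichment could be tested there. In the limma fit of log2 fold enrichment over 7460 such regions, centred on each library's median, 1 region was higher in the depletions (0.0134%) and 5 were lower (0.067%) at a Benjamini-Hochberg adjusted p under 0.05. At an unadjusted p under 0.05 there were 733. The middle 90% of log2 differences between depletions and siScramble lay between −0.42 and 0.38, with a median standard error of 0.19. None of these 6 lay in a gene of the 8 functional lists. Against siScramble, siDDX1 alone gave 0 of 7460 regions past the threshold in limma (596 at an unadjusted p under 0.05) and siEXOSC3 alone gave 10 (0.134%, with 1107 unadjusted), and both use the same siScramble libraries. Between the depletions, 30 regions (0.402%) passed, 16 higher and 14 lower in siEXOSC3 than in siDDX1, more than the 6 of the joint comparison.

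The higher region covered the start of H2-D1 (chr17:35401023-35403816), a class I major histocompatibility gene that presents peptides at the cell surface. Its fold enrichment was 7.76, 10.6 and 11.4 in siScramble 1, 2 and 3, 20.2, 15.2 and 21.6 in siDDX1, and 16.5, 15.7 and 23.3 in siEXOSC3. The groups did not overlap, and the log2 difference was 0.93 ± 0.18 (SE, limma adjusted p = 0.0238). Against siScramble alone, siDDX1 gave 1.06 (limma adjusted p = 0.0659) and siEXOSC3 gave 0.80 (limma adjusted p = 0.0707), and these comparisons share the siScramble libraries. The H2-D1 call was lost on −log10 q in place of fold enrichment (limma adjusted p = 0.0721) and on the recovered pileup (log2 difference 0.73, limma adjusted p = 0.152). H2-D1 has close paralogs in the same locus, and reads shared with them could not be told apart here.

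Of the 5 lower regions, 3 lay on chromosome 8. None of the 5 passed for siDDX1 alone against siScramble (limma adjusted p from 0.0840 to 0.496), while the siEXOSC3 comparison passed at all but the Wfdc3 region (limma adjusted p = 0.0640 there). The first was in an intron of 4932443I19Rik (chr8:13724076-13725022), with fold enrichments of 11.7, 17.3 and 10.5 in siScramble, 6.98, 4.73 and 6.46 in siDDX1 and 4.23, 5.50 and 7.48 in siEXOSC3. The groups did not overlap, and the log2 difference was −1.14 ± 0.19 (SE, limma adjusted p = 0.00979). The second lay between genes, 39.6 kb from the transcription factor gene Thap1 (chr8:27313021-27315824). Its fold enrichment was 20.5, 27.3 and 24.0 in siScramble, 18.2, 12.8 and 14.3 in siDDX1 and 8.2, 5.80 and 12.3 in siEXOSC3, a log2 difference of −1.07 ± 0.18 (SE, limma adjusted p = 0.00979). Here siEXOSC3 also lay below siDDX1 (log2 difference −1.05, limma adjusted p = 0.0369). The third, within the Gm20388 model and 11.4 kb from Klhdc4, fell from 20.6, 25 and 28 in siScramble to between 9.55 and 14.6 in the 6 others, with a log2 difference of −1.11 ± 0.19 (SE, limma adjusted p = 0.00979).

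The other lower regions lay 16.4 kb from Trcg1 on chromosome 9 and across the divergent starts of Wfdc3, a protease inhibitor gene, and Dnttip1, which encodes a subunit of a histone deacetylase complex, on chromosome 2. Near Trcg1 the fold enrichment was 14.1, 12.8 and 15.5 in siScramble and 4.97 to 10.5 in the depletions (log2 difference −1.05 ± 0.20, SE, limma adjusted p = 0.0238). At Wfdc3 it was 12.7, 18.1 and 18.1 in siScramble and 5.05 to 11.8 in the depletions (log2 difference −0.95 ± 0.19, SE, limma adjusted p = 0.0463). These groups did not overlap at either region. On −log10 q, the calls near Thap1, Klhdc4 and Trcg1 and at Wfdc3 were lost too (limma adjusted p = 0.0692, 0.109, 0.0692 and 0.109). The 4932443I19Rik call stayed (limma adjusted p = 0.0361). On the recovered pileup, the calls near Klhdc4 and at Wfdc3 were lost (limma adjusted p = 0.0946 and 0.0885). On the length-weighted mean of a region's peaks, those near Trcg1 and at Wfdc3 were lost (limma adjusted p = 0.0743 and 0.196). Without siScramble 1 or siScramble 2 no region passed, and without siScramble 3 only 1 did.

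**Figure D5:**
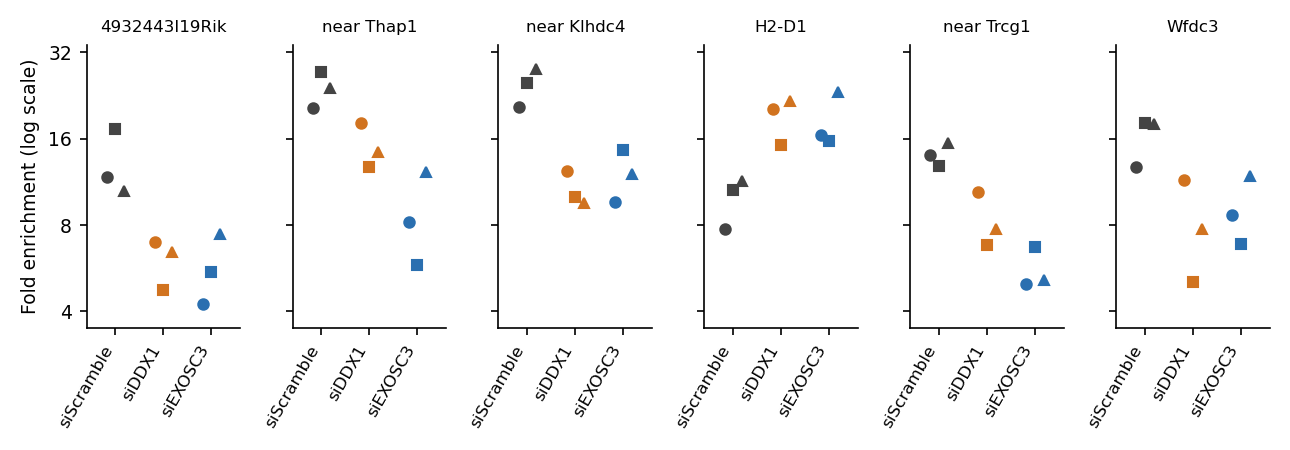
Fold enrichment (log scale) in each library of the 6 regions called in 9 of 9 libraries that passed the adjusted p of 0.05, ordered by p. In each panel the 3 siScramble values lie on 1 side of all 6 depletion values, with H2-D1 the only one where the depletions are higher. The regions were picked by p on these values, so the separation is a description only.

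The gene lists were also counted at these shared regions. Over all 7460 regions the median log2 difference was −0.01, with 3575 higher and 3885 lower in the depletions. For protein folding and stress response genes 24 regions were higher and 50 lower, with a median of −0.11, and for neuronal development genes 25 were higher and 9 lower, with a median of 0.10. Neuroblastoma identity genes had 16 higher and 4 lower at a median of 0.10. The medians of the other functional lists ran from −0.06 for R-loop resolution genes to 0.04 for the RNA exosome and its cofactors. No region of the lists passed the test, and the list medians themselves were not tested.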

How the data were processed

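DRIP-seq peak lists of N2a cells were analysed for 9 untreated libraries (3 each titled siScramble, siDDX1 and siEXOSC3) and 3 RNase H libraries. The input library was not analysed here. Per the submitters' processing notes and the study's methods, the tools were Bowtie2 2.4.4, SAMtools, MACS2 2.2.6, HOMER 4.11 and DESeq2 on mm9, and peaks were called per library against the input. The deposited lists gave each peak a score (not used), the fold enrichment ratio over background at the summit, and −log10 p and −log10 q values, all made by the authors. No read counts were given in the files used here, so DESeq2 was not run.

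The whole-fragment summit pileup and the background were solved from each peak's fold enrichment and p-value (tolerance 0.002), which worked for all but 9 to 20 peaks per library. Overlapping peaks were joined, and regions were annotated by midpoint with GENCODE vM1 on NCBIM37. Samples were grouped by title. Library values were compared by two-sided exact permutation tests over 84 choices of 3 libraries, whose smallest possible p is 0.0238. Enrichment in regions called in 9 of 9 libraries was tested with limma 3.58.1 in R 4.3.3 on median-centred log2 fold enrichment, with Benjamini-Hochberg adjustment. Other steps used Python 3.11.15, numpy 2.4.6, pandas 2.3.3 and scipy 1.17.1, and the code was tested on simulated data. The methods give 3 plates of cells per condition, and p-values measure only the spread between these libraries of 1 cell line. Peak calling depends on depth, so a missing call is not a measured absence, and PCR reads without molecular identifiers are not independent molecules.

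The named regions were the first 12 in genes and the first 2 outside genes of each class, ranked by the number of calling libraries and then by mean fold enrichment. Constant regions past the threshold, list genes with members, up to 5 genes with the most members of each class, and Ints6, Celf4, Bambi, Ddx1 and Exosc3 were named as well. Some items that met this rule are not reported here. Members and lists were chosen with earlier results of these data known. Alternatives varied the q threshold, the number of peaks per library, joining, overlap, restriction fragments in place of regions, the number of calling libraries, the normalization, measure and spread of the limma fit, the replicate block and the libraries used. A margin over the call limit and the recovered pileup were added after seeing the data.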

Additional observations from a re-analysis of the deposited data

Results flagged for a closer look

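Among 13 values checked over the 6 depletion libraries, the background of siDDX1 1 stood apart from the others, at 1.29 fragments. For a single value, chance sets a library apart in this way in about 1 of 20 groups, and 13 values were checked. That rate takes the 6 libraries as 1 group, although they come from different depletions. Without siDDX1 1 there were 2034 siScramble-only and 61 both-depletions-only regions. The 61 had to be called in both remaining siDDX1 libraries, a rule that left 214 without siDDX1 2.

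The depletions differed from each other at the region nearest Thap1, where siEXOSC3 minus siDDX1 was −1.05 on the log2 scale (limma adjusted p = 0.0369). It was 1 of 30 regions past the threshold in that comparison. Both lay below siScramble there, by log2 differences of −0.55 and −1.60.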

How the results depend on the processing

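siScramble-only regions numbered 1349, and 730 with −log10 q of at least 5, 727 with the same number of peaks per library, 713 with peaks up to 1000 bases apart joined, 76 when called in 3 of 3, 44 at 1.5 times the call limit, and 193 to 2034 with each library left out in turn. Both-depletions-only regions numbered 309, and 148 with −log10 q of at least 5, 197 with peaks joined, 143 when peaks had to cover 50% of the region, 13 when called in 3 of 3 of each depletion, 2 at 1.5 times the call limit, and 61 to 769 with each library left out. On restriction fragments there were 1961 and 358. With the same number of peaks per library, both-depletions-only regions numbered 305. When peaks had to cover 50% of the region, siScramble-only regions numbered 1794. The cause of these moves was not tested.

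Of the regions called in 9 of 9 libraries, 6 passed the test, 1 on −log10 q in place of fold enrichment, 3 with −log10 q of at least 5, 4 on the recovered pileup (3 of them among the 6, without H2-D1), and 0 to 10 with each library left out. It was 0 without siScramble 1 and without siScramble 2, 1 without siScramble 3, 3 without siDDX1 3 or siEXOSC3 1, and 10 without siDDX1 1. None of the 6 log2 differences changed sign under any alternative run.

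The log2 difference in peak number lay between −0.32 and 0.09 with a library left out and changed sign without siScramble 2 (0.0057), siScramble 3 (0.0901) or siDDX1 2 (0.0050). Covered length lay between −0.41 and 0.05 and changed sign without siScramble 3 (0.0510). The share of intergenic peaks lay between −0.272 and 0.230 points, changed sign without siScramble 3 (−0.0614), siEXOSC3 1 (−0.116) or siEXOSC3 2 (−0.272), and was −0.172 with −log10 q of at least 5. Without 1 siScramble library the smallest possible p is 0.0714, above 0.05.

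With the replicate block 7 regions passed, including the same 6, and the library values gave exact permutation p = 0.815, 0.667, 0.370 and 0.963. Same-numbered libraries correlated in their deviations between −0.121 and 0.105, and differently numbered ones between −0.194 and 0.153. Whether same-numbered libraries were paired was not tested. No call was lost under the block.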
